A study of Homo sapiens with 26 samples.

Results

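The promoters of 36 genes of the Fanconi anemia and homologous recombination pathways were followed by acetylation of histone H3 at lysine 27 (H3K27ac) in HCT116 cells. HCT116 is a colorectal carcinoma line with wild-type p53. The genes came from a list drawn up with earlier results of these data known, partly because the FANCA promoter led the rise after Nutlin-3a in the RAD21 line, out of 19798 protein-coding genes with a basic transcript in the annotation. A gene's promoter region was the merged H3K27ac region overlapping the window from 1000 bp upstream to 200 bp downstream of one of its start sites in GRCh37, and all 36 genes had such a region in all 10 H3K27ac peak lists. The parental cells (WT) were profiled with the vehicle DMSO (0 h) and at 2 times after Nutlin-3a (1 h, 10 h), which blocks the binding of p53 by its ubiquitin ligase. The line HCT116_RAD21 (RAD21 line) was profiled at 0 h and after 1 h of Nutlin-3a. The study's methods describe it as carrying an auxin-inducible degron on the cohesin subunit RAD21, with the auxin analog given before Nutlin-3a. The sample labels do not state the auxin, while the peak names do carry a knockdown tag. Each of these 5 groups had 2 peak lists, and WT cells also had 2 lists of H3K4me1, a mark of enhancers and promoter flanks, at each time.

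The Fanconi pathway removes crosslinks between DNA strands. FANCM anchors a core complex at the stalled fork, the ligase subunit FANCL of that complex places ubiquitin on FANCD2 and FANCI, and nucleases gathered by SLX4 then unhook the crosslink. The broken chromatid is rebuilt by homologous recombination, in which MRE11, RAD50, NBN and RBBP8 resect the break, BRCA2 and PALB2 prepare the resected strand for exchange, and the BLM helicase with RMI1 and RMI2 resolves the joined strands. Many of these genes are transcribed mainly in late G1 and S phase, and p53 activation is known to lower many genes of the cell cycle through p21.

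Values below are percentiles, the share of the 18757 regions called in all 10 lists that had a lower −log10 p-value than the promoter in the same list. Ranks were used because the enrichment itself was on a different scale in each list. At the FANCA promoter the fold enrichment was 7.24 and 7.70 in the WT 0 h lists, 9.55 and 49.9 in the WT 1 h lists, 42.1 and 28.9 in the RAD21 line at 0 h and 118 and 185 in that line at 1 h. At this promoter the enrichment was below 10 in the lists with 1 form of peak name and above 20 in the others. The 3 lists whose names lacked the word input (both WT 0 h lists and WT 1 h replicate 1) held 31640 to 33976 peaks, and the other 7 held 39092 to 49127 wider peaks. The part of this difference in the results was not tested beyond the fits and differences within 1 form of name given below. H3K27ac peaks stood at the promoters of the epithelial genes EPCAM, CDH1, KRT8, KRT18 and KRT19 in all 10 lists, while CDX1, LGR5 and VIL1 had none. Of the markers of other cell types with an annotated start site, only SYP had a peak, in 6 lists and at no more than the 15.8th percentile.

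The promoters of 3 genes on which the results turn are shown from 250 bases upstream to the first 30 transcribed bases, read from GRCh37 on the strand of the gene, with E2F sites, CCAAT boxes and CHR elements on either strand in capitals. They are shown because FANCA and MSH6 had the largest rises after 1 h in WT cells among the 36, and FANCI had 1 of the 2 largest falls after 10 h.
FANCA (chr16:89883026-89883305, minus strand): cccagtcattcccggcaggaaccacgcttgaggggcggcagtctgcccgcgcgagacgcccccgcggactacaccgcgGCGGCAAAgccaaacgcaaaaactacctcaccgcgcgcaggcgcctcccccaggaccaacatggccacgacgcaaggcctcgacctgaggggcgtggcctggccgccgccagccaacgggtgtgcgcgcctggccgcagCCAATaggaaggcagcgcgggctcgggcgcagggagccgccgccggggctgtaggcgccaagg
MSH6 (chr2:48010034-48010313, plus strand): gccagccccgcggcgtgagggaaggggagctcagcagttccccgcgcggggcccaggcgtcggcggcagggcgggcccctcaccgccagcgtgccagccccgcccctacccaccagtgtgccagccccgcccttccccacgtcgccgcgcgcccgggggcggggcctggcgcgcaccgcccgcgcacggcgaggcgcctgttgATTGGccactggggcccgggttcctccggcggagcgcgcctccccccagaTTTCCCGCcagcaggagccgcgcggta
FANCI (chr15:89786960-89787239, plus strand): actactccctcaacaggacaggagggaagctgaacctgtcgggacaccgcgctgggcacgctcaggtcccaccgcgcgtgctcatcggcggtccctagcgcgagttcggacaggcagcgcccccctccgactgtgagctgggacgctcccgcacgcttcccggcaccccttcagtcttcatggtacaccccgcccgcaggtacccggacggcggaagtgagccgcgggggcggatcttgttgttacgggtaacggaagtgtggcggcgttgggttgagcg

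The E2F site was searched as TTTCCCGC, TTTGGCGC, TTTGCCGC or TTTCGCGC, the CHR element as TTTGAA or TTCGAA, and the CCAAT box as CCAAT, each on both strands from 250 bases upstream to 30 downstream. FANCA had an E2F site at −172 to −165 from the start site and a CCAAT box at −33 to −29. MSH6 had its E2F site at 3 to 10, just past the start, and a CCAAT box at −47 to −43. FANCI had none of these motifs, and none of the 3 promoters had a CHR element in this window.

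Of the 36 promoters, 8 held an E2F site (FANCA, FANCC, FANCD2, XRCC2, RMI1, RMI2, EXO1 and MSH6), a share of 22.2% beside 4.19% of all 19870 coding promoters of the same length. The CCAAT box was in 16 (44.4%, beside 35.4% of all), the CHR element in 3 (8.33%, beside 12.2%), the ETS site CCGGAAG in 11 (30.6%, beside 13.9%), the GC box GGGCGG in 23 (63.9%, beside 60.6%), and the NRF1 core GCATGCGC and the CRE TGACGTCA each in 3 (8.33%, beside 4.17% and 2.68%). The p53 decamer was found in BLM alone (2.78%, beside 5.15%). The median GC content was 63.2% both for these genes and for all coding promoters. These matches of letters are a description of the sequence, with no test.

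**Figure D1:**
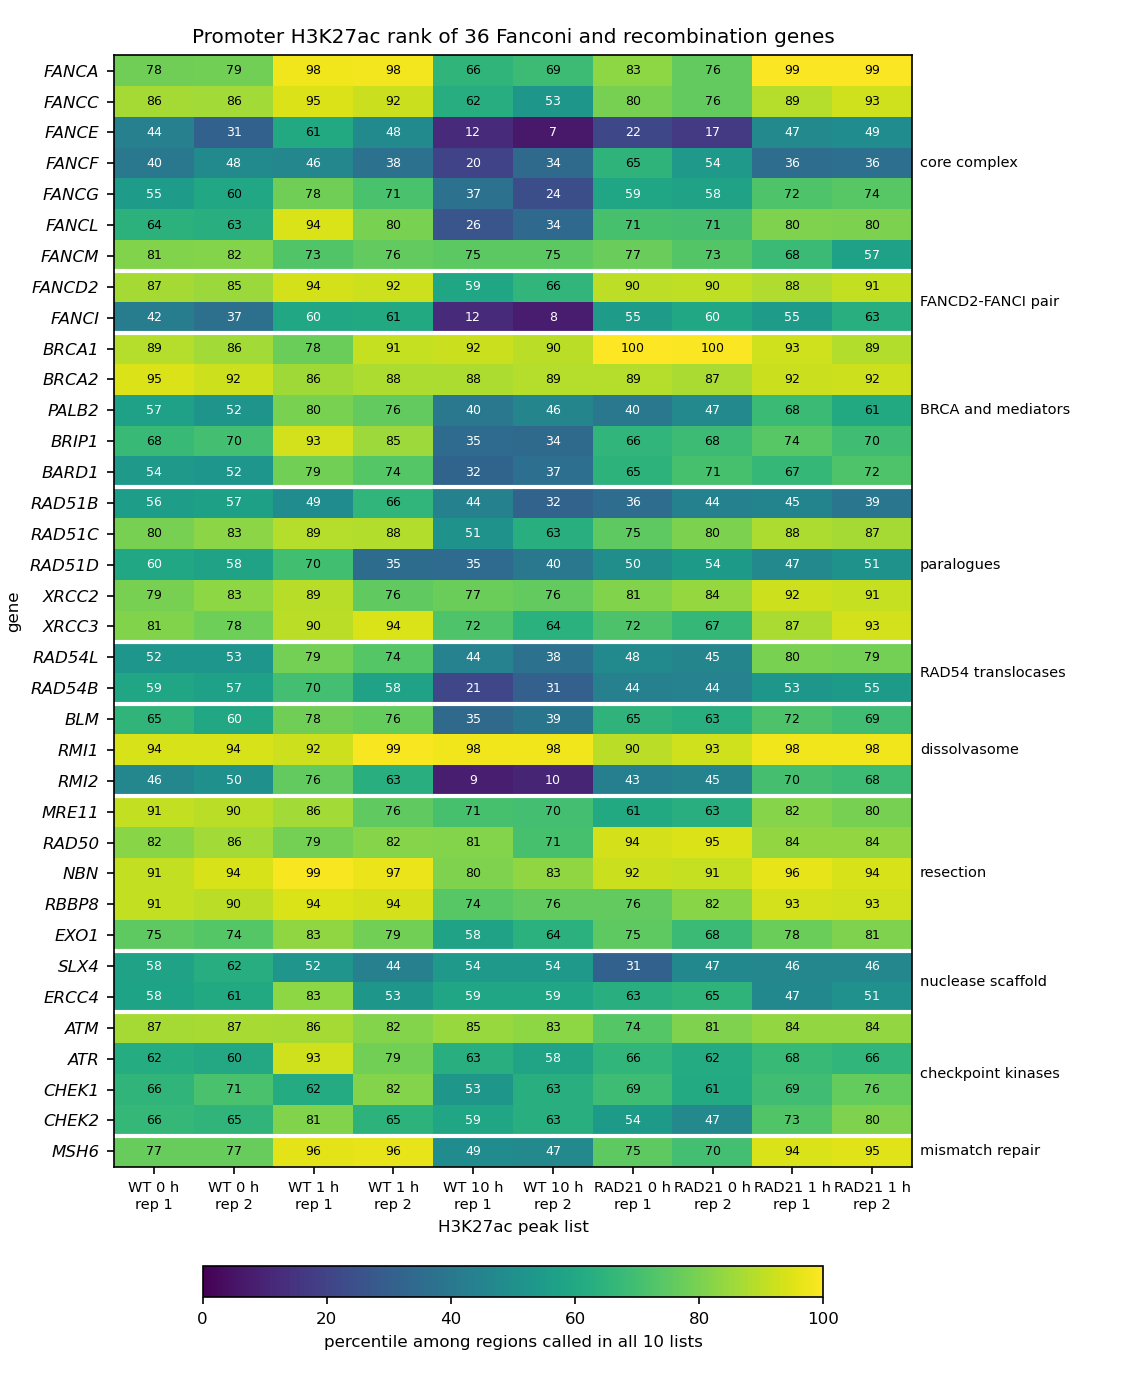
H3K27ac percentile of the promoter region (color and number) for the 36 genes (rows, grouped by role) in the 10 peak lists (columns). In 20 rows both WT 1 h lists lie above both WT 0 h lists and in 32 rows both WT 10 h lists lie below them, down to 6.96.

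Acetylation at these promoters was above the middle of the ranking before treatment. In the WT 0 h lists the median of the 36 was at the 67.2th and 70.6th percentile, with 32 and 33 of them above the 50th. Among the highest were BRCA2, a mediator of recombination (94.7 and 92.2), RMI1, a subunit of the BLM complex (94.1 and 93.9), and NBN, the subunit that recruits MRE11 (90.8 and 94.0). The lowest in replicate 1 was the core complex subunit FANCF (40.0 and 47.7), and the lowest in replicate 2 was FANCE, the subunit that contacts FANCD2 (43.7 and 31.1). The medians were 81.9 and 77.7 after 1 h in WT cells, 55.7 and 58.7 after 10 h, 67.4 and 67.5 in the untreated RAD21 line and 75.8 and 79.3 in that line after 1 h.

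After 1 h of Nutlin-3a in WT cells, 16 of the 36 promoters rose in rank and 2 fell, by limma on normal scores of the ranks at a Benjamini-Hochberg adjusted p under 0.05. Over all regions tested 14.3% rose and 14.8% fell, and over the 10612 regions at coding promoters 16.6% rose and 16.7% fell. The median change of the 36 was 0.32 in normal score units (SDs of the standard normal distribution onto which ranks were mapped), beside −0.01 for all regions. For 20 promoters both 1 h lists lay above both 0 h lists, beside 29.6% of all regions. For 6 (FANCM, BRCA2, MRE11, RAD50, SLX4 and ATM) both lay below, and the share of all regions on that side is not given here.

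FANCA, a scaffold subunit of the core complex, stood at the 78.4th and 78.8th percentile at 0 h, at 97.9 and 98.4 after 1 h and at 65.6 and 68.6 after 10 h in WT cells. Both 1 h lists were near the top of the ranking and the 10 h lists below the untreated ones, without overlap between times. Its change at 1 h was 1.30 ± 0.125 (SE, 2 lists per group, adjusted p = 7.70e-05).

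MSH6, which recognizes DNA mismatches, moved in the same manner from 76.7 and 76.8 at 0 h to 95.8 and 96.2 at 1 h and then to 48.8 and 47.0 at 10 h. It rose by 1.02 ± 0.111 at 1 h (adjusted p = 1.20e-04). BRIP1, the helicase partner of BRCA1, went from 67.8 and 70.1 to 93.1 and 85.4 (change 0.77 ± 0.137, adjusted p = 0.00156). RAD54L, a DNA translocase of the recombination machinery, went from 52.5 and 52.7 to 79.0 and 73.5 (0.65 ± 0.116, adjusted p = 0.00162). In each of these genes the 1 h lists stood clear of the untreated ones.

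By role, 4 of 7 core complex genes rose (FANCA, FANCC, FANCG and the ligase subunit FANCL), as did both FANCD2 and FANCI, with changes of 0.41 and 0.52. Of the BRCA genes and mediators, PALB2, BRIP1 and BARD1 rose, by 0.64 to 0.77. Among RAD51B, RAD51C, RAD51D, XRCC2 and XRCC3 only XRCC3 passed (0.60), and the others ranged from −0.15 to 0.32. BLM and RMI2 rose (0.43 and 0.56), as did NBN of the resection genes (0.71) and ATR, the kinase that answers stalled forks (0.85). None of SLX4, ERCC4, ATM, CHEK1 or CHEK2 passed the test, and their changes ran from −0.31 to 0.27. The remaining 9 genes did not pass either, from FANCM (−0.23, adjusted p = 0.165) to FANCE (0.43, adjusted p = 0.0727).

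The 2 promoters that fell at 1 h were BRCA2, from 94.7 and 92.2 to 85.8 and 87.8 (−0.40 ± 0.120, adjusted p = 0.0241), and MRE11, the nuclease that starts resection, from 90.7 and 89.7 to 86.1 and 75.7 (−0.40 ± 0.131, adjusted p = 0.0347). Both calls were lost without WT 0 h replicate 1 and without WT 0 h replicate 2. That of MRE11 was lost too without any other 1 of the lists except WT 1 h replicate 1. The lists of WT 10 h and of the RAD21 line are among these, though they enter this comparison through the shared spread only. The MRE11 call was also lost on the percentile scale and once the fit allowed for how the peaks were named. It was kept with the replicate block and with regions called in at least 8 lists. Apart from the fits without a WT 0 h list, BRCA2 kept its call in all of these. When either WT 0 h list was left out, 10 promoters rose, FANCA and MSH6 included, and 0 fell. Over all regions 6.83% and 7.34% rose and 6.41% and 6.81% fell in those 2 fits. Without WT 1 h replicate 1 more promoters passed in both directions, as did more of all regions. With ranks taken by fold enrichment instead of p-value, limma called 0 regions of any kind at 1 h, while 28 of the 36 promoters still had a positive change, and at an unadjusted p under 0.05 there were 8 rises and 0 falls.

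**Figure D2:**
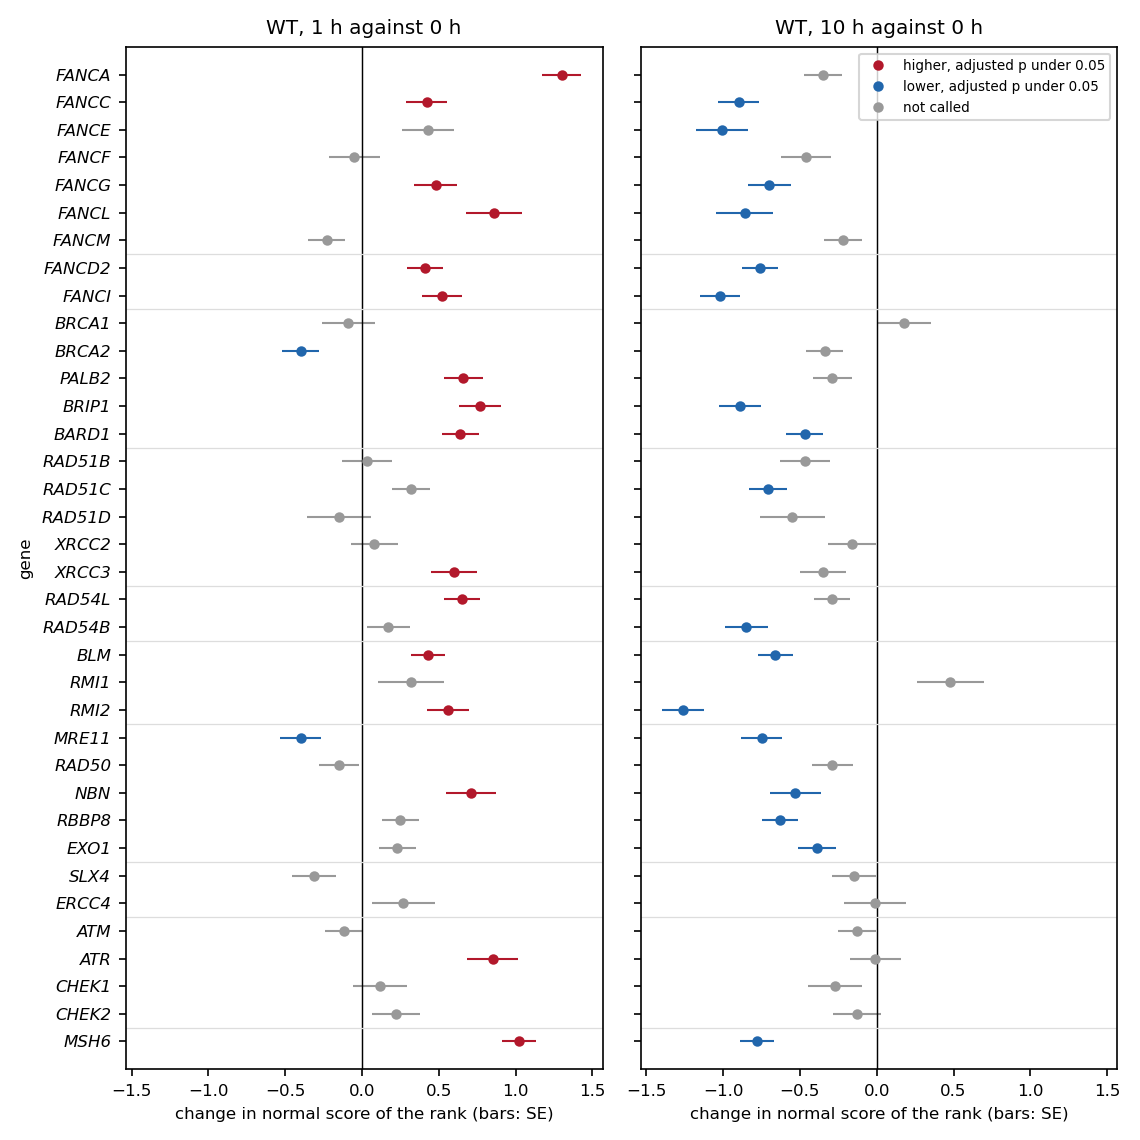
Change of the normal score of the H3K27ac rank in WT cells at 1 h (left) and 10 h (right) against 0 h for each gene, with bars of 1 SE (2 lists per group). The points lie mostly right of 0 at 1 h, up to 1.30, and mostly left of 0 at 10 h, down to −1.26.

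After 10 h in WT cells 17 of the 36 promoters fell and 0 rose, by limma at the same threshold, beside 8.56% falling and 9.70% rising over all regions and 10.4% and 5.42% over coding promoters. At an unadjusted p under 0.05 the counts were 26 lower and 1 higher. The median change was −0.47, beside −0.04 for all regions and −0.08 for coding promoters, and 34 of the 36 changes were negative. For 32 promoters both 10 h lists lay below both 0 h lists, beside 37.2% of all regions.

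RMI2, the small subunit that stabilizes the BLM complex, fell from 46.2 and 50.1 at 0 h to 8.58 and 10.5 at 10 h, after 75.9 and 62.9 at 1 h. That change of −1.26 ± 0.137 (adjusted p = 1.80e-04) was the largest fall of the 36. FANCI went from 42.2 and 37.1 to 12.1 and 8.16 (−1.02 ± 0.132, adjusted p = 5.71e-04), MSH6 changed by −0.78 ± 0.111 (adjusted p = 9.13e-04), and FANCC, a core complex subunit, fell from 86.4 and 86.1 to 62.3 and 52.8 (−0.90 ± 0.136, adjusted p = 0.00140). FANCE went from 43.7 and 31.1 to 11.8 and 6.96 (−1.01 ± 0.170, adjusted p = 0.00267).

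The falls reached most roles. In the core complex FANCC, FANCE, FANCG and FANCL fell, and so did FANCD2 and FANCI. BRIP1 and BARD1, RAD51C, RAD54B, BLM and RMI2 fell as well. Of the 5 resection genes 4 fell, MRE11 and NBN by 0.75 and 0.53 and RBBP8 and the exonuclease EXO1 by 0.63 and 0.39. No checkpoint kinase and neither SLX4 nor ERCC4 passed the test (changes −0.27 to −0.01). FANCA itself missed the threshold at 10 h (−0.35 ± 0.125, adjusted p = 0.0673), and the only positive changes were those of RMI1 (0.48, adjusted p = 0.137) and BRCA1 (0.18, adjusted p = 0.504). Without WT 0 h replicate 2 the number that fell was 11. The 2 WT 1 h lists enter this comparison through the shared spread only. Without either of them more promoters passed, as did more of all regions, and the median change stayed at −0.47.

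Both WT 10 h lists carry the word input in their peak names and both 0 h lists do not, so the 10 h comparison runs across the forms of name. Only the WT 1 h group holds both forms, with 1 list of each. A term for the form thus rests on the difference between those 2 lists and cannot separate form from replicate. With the form as a term in the fit, 8 promoters fell and 2 (ERCC4 and ATR) rose at 10 h, beside 2.34% and 2.06% of all regions. Of the 17, FANCC, FANCD2, FANCI, RAD51C, RMI2 (−0.89, adjusted p = 0.0114) and MSH6 (−0.82, adjusted p = 0.00536) were called lower there too, while FANCL (−0.12, adjusted p = 0.773) and NBN (−0.02, adjusted p = 0.963) did not pass. With ranks by fold enrichment 11 fell, beside 9.58% of all regions. RMI2 was among them (−1.68, adjusted p = 0.0301), and MSH6 did not pass (−0.71, adjusted p = 0.0737).

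Differences within 1 form of name were taken without a test. The WT 1 h lists differ in form at 1 time, and replicate 2 minus replicate 1 was negative for 25 of the 36 promoters, with a median of −0.17, beside 52.9% and −0.03 over all regions. Among the lists without the word, WT 1 h replicate 1 minus the mean of the WT 0 h lists was positive for 26 of the 36 promoters, with a median of 0.45, beside 49.3% of all regions. FANCA differed by 1.24, FANCL by 1.23 and ATR by 1.17. Among the lists with the word, the mean of the WT 10 h lists minus WT 1 h replicate 2 was negative for 30 of 36, with a median of −0.85, beside 48.7% of all regions. It was −1.82 for MSH6, −1.70 for FANCA and −1.64 for RMI2. The 6 promoters that did not go down from 1 h to 10 h in this way were BRCA2, RAD51D, XRCC2, SLX4, ERCC4 and ATM, with differences of 0.02 to 0.26. Against the untreated RAD21 line, whose lists share this form, the WT 10 h lists were lower for 31 of 36, with a median of −0.38, but the lines differ there too.

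**Figure D3:**
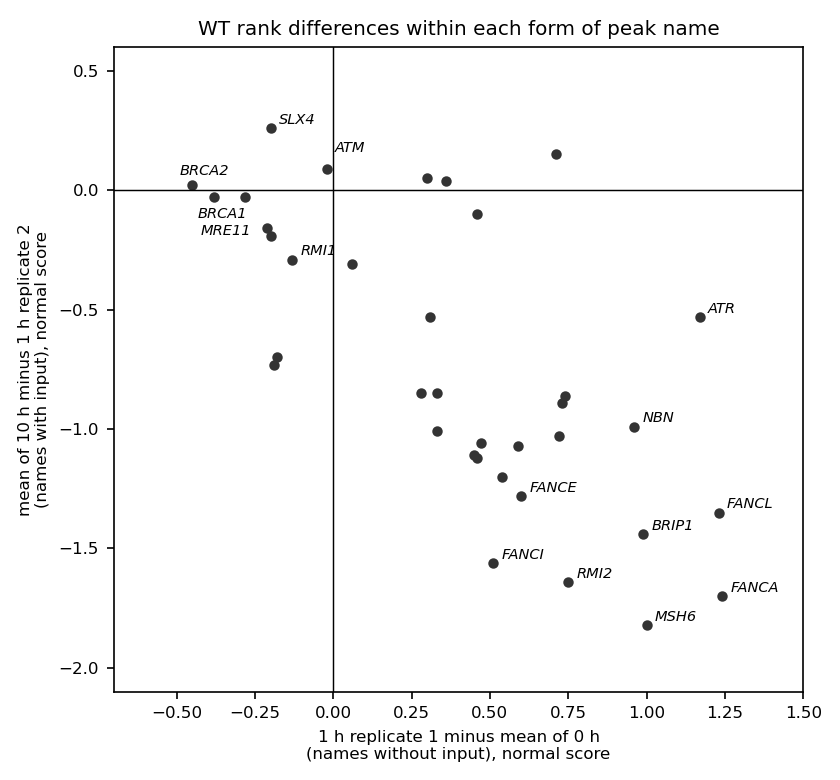
Each point is 1 of the 36 promoters: on the horizontal axis WT 1 h replicate 1 minus the mean of the WT 0 h lists, on the vertical axis the mean of the WT 10 h lists minus WT 1 h replicate 2, both in normal score units and sharing no list. FANCA (1.24 and −1.70) and MSH6 (1.00 and −1.82) lie at the lower right, and BRCA2 (−0.45 and 0.02) at the upper left.

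In the RAD21 line FANCA stood at 83.1 and 75.9 at 0 h and at 99.3 and 99.3 after 1 h, the rise by which it had been selected (1.62 in normal score units). Since the list rests partly on this comparison, its counts are given as a description only. There were 15 promoters past the threshold upward and 4 downward, with 14.4% and 13.4% of all regions. No promoter changed more than FANCA, and the nearest below it was MSH6, from 75.0 and 70.0 to 94.2 and 95.0 (1.01). RAD54L went from 47.9 and 45.4 to 80.0 and 79.0 (0.91), and RBBP8, the CtIP cofactor of MRE11, went from 75.8 and 82.4 to 93.3 and 92.9 (0.67). At the other end the BRCA1 region went from 99.7 and 99.6 to 92.7 and 88.6 (−1.35). RAD50, the ATPase bound to MRE11, went from 93.7 and 94.6 to 83.6 and 83.8 (−0.59), FANCF from 65.0 and 54.0 to 35.6 and 36.5 (−0.60) and FANCM from 77.0 and 73.3 to 68.2 and 57.1 (−0.35). When any 1 of the 4 lists was left out, 9 promoters were past the threshold upward, beside 5.72% to 8.16% of all regions.

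**Figure D4:**
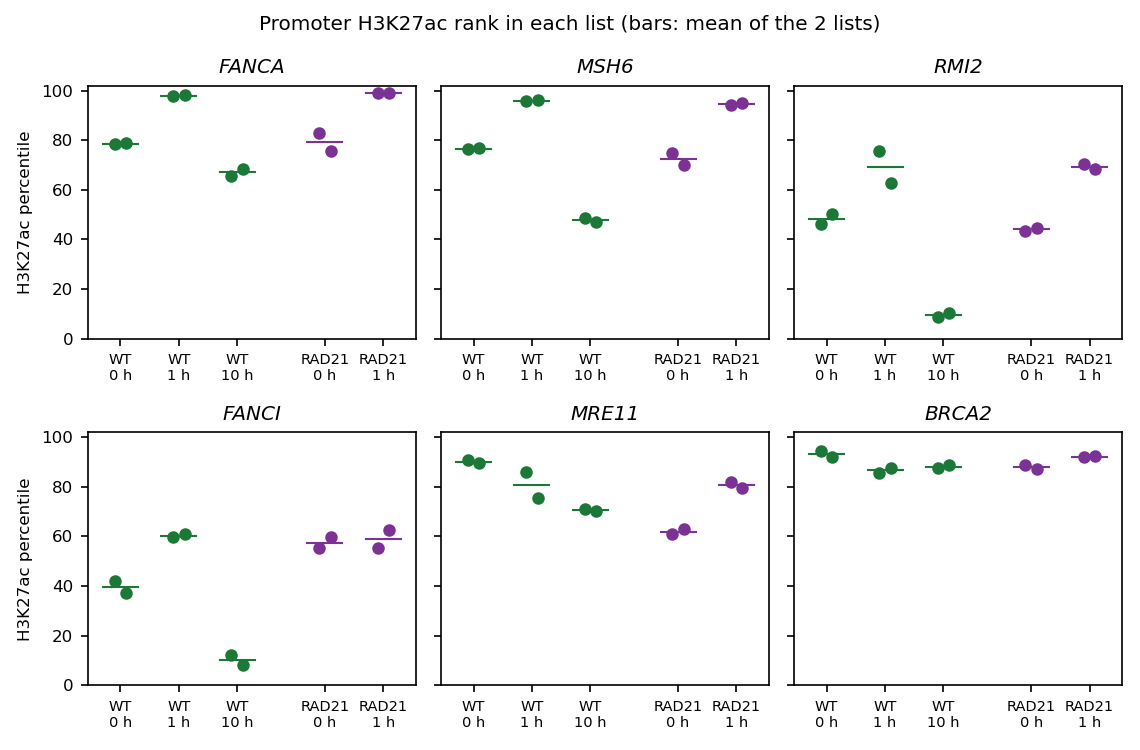
H3K27ac percentile in each list for 6 genes, with WT in green, the RAD21 line in purple and a bar at the mean of the 2 lists of a group. FANCA and MSH6 lie higher at 1 h than at 0 h in both lines, and RMI2 and FANCI are lowest at WT 10 h. For MRE11 and BRCA2 the 1 h lists lie below the 0 h lists in WT and above them in the RAD21 line.

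The difference between the 1 h changes of the lines (RAD21 line minus WT) was likewise only described, with 2 promoters past the threshold upward (MRE11 and BRCA2) and 4 downward (BRCA1, BRIP1, BARD1 and ATR), beside 11.7% and 11.0% of all regions. These were 5.56% and 11.1% of the 36, below the share of all regions upward and near it downward. For FANCA the difference was 0.33 and for MSH6 −0.01. For BRCA1 it was −1.26 at the region used here, which lies at an alternative start, and −0.02 over its main start site. MRE11 went from 60.9 and 63.1 to 81.9 and 79.5 in the RAD21 line and BRCA2 from 89.0 and 87.4 to 92.0 and 92.5, where both were lower at 1 h in WT cells. BRIP1 stood at 65.7 and 68.4 at 0 h and at 74.1 and 69.5 at 1 h in the RAD21 line, ATR at 66.0 and 61.5 and then 67.9 and 66.0, and BARD1 at 64.6 and 70.9 and then 66.6 and 72.4, with overlapping times in BARD1 and ATR.

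Before treatment 4 promoters were higher and 6 lower in the RAD21 line than in WT cells, beside 16.8% and 20.7% of all regions, so the shares called (11.1% and 16.7%) were below those of all regions. The RAD21 line 0 h lists were part of the comparison in which FANCA was noticed, so these calls are not independent of that choice. The higher ones were BRCA1, RAD50, FANCI and BARD1. RAD50 stood at 82.3 and 86.3 in WT and at 93.7 and 94.6 in the RAD21 line (0.56 ± 0.132, adjusted p = 0.00507), and FANCI at 55.4 and 59.7 in the RAD21 line (0.45 ± 0.132, adjusted p = 0.0163). The lower ones were MRE11 (−0.99 ± 0.131, adjusted p = 9.30e-05), RBBP8 (−0.48 ± 0.119, adjusted p = 0.00667), SLX4 (−0.54 ± 0.143, adjusted p = 0.00978), FANCE, ATM and BRCA2. SLX4 stood at 57.8 and 62.2 in WT and at 31.1 and 46.6 in the RAD21 line. MRE11 and BRCA1 kept their calls without any 1 list of these 2 groups and under each other setting, whereas each of the other 8 lost its call without at least 1 of these lists, and 2 to 4 were left in each direction. Over all regions 11.4% to 11.5% were higher and 11.0% to 13.4% lower in those fits. Without either WT 1 h list, which enters this comparison through the shared spread only, more promoters passed in both directions, as did more of all regions. The name form differs between these groups, and as a term it again rests on the 2 WT 1 h lists. With it as a term 7 were higher and 5 lower, beside 11.8% and 13.2% of all regions. RAD50 (0.46, adjusted p = 0.0730), RBBP8 (−0.43, adjusted p = 0.0682) and SLX4 (−0.33, adjusted p = 0.281) did not pass.

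After 1 h the lines differed at 2 promoters, BRIP1 (93.1 and 85.4 in WT, 74.1 and 69.5 in the RAD21 line, −0.69 ± 0.137, adjusted p = 0.00785) and ATR (92.7 and 78.8 against 67.9 and 66.0, −0.69 ± 0.167, adjusted p = 0.0203). The 2 lower promoters were 5.56% of the 36, beside 6.15% of all regions, so this share was near that of all regions. Limma called 0 promoters higher in the RAD21 line at 1 h (3 at an unadjusted p under 0.05), beside 5.68% of all regions. Without RAD21 line 1 h replicate 1 or replicate 2 neither BRIP1 (adjusted p = 0.0515 and 0.0913) nor ATR (0.114 and 0.135) passed. Without either WT 1 h list more promoters passed in both directions, as did more of all regions. FANCA, at 97.9 and 98.4 in WT and 99.3 in both lists of the RAD21 line, stood above WT without overlap, which is a description, as it was chosen on the RAD21 line at 1 h. The calls between the lines at 1 h rest on the same RAD21 line lists and are not independent of that choice.

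BRCA1 has a separate standing. The region chosen by the rule (chr17:41320119-41325554) lies at an alternative start and also holds the start of NBR1. It was at 88.7 and 86.0 in WT and 99.7 and 99.6 in the RAD21 line at 0 h (1.53 ± 0.173, adjusted p = 2.66e-05). The region over the main BRCA1 start site (chr17:41276000-41279313) was at 89.2 and 87.3 in WT and 93.9 and 93.4 in the RAD21 line, a smaller difference (0.34 ± 0.123, adjusted p = 0.0446). At 1 h in WT cells the main start site fell to 76.2 and 82.8 (−0.36 ± 0.123, adjusted p = 0.0429), while the region chosen by the rule was at 77.7 and 91.1 and did not pass (−0.09, adjusted p = 0.728). In the RAD21 line at 1 h, as a description, the main start site stood at 88.6 and 86.1. That change was −0.38, beside −1.35 for the region chosen by the rule.

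Several of these genes share their region with another gene. A coding start site on the opposite strand lay within 1000 bp of 8 of the 36 start sites (22.2%, beside 10.0% of all coding genes). Examples are ANKRD49 at 140 bp from MRE11, ZAR1L at 145 bp from BRCA2, NPAT at 429 bp from ATM and HNRNPK at 590 bp from RMI1. Counting FANCM (with FKBP3) and BRCA1 (with NBR1), 10 regions held another coding start. Their peaks cannot be assigned to either gene. Of these 10, 2 rose and 2 fell at WT 1 h, and 2 fell at 10 h. Of the 26 regions with no other coding start, 14 rose and 0 fell at 1 h, and 15 fell at 10 h. Over all regions 11.3% of those with 1 coding start and 5.46% of those with 2 or more fell at 10 h, while at 1 h 16.7% and 17.4% rose and 16.6% and 18.5% fell. In the RAD21 line at 1 h, again as a description, 6 of the 10 were past the threshold upward and 2 downward, and of the 26 there were 9 and 2. Over all regions with 2 or more coding starts 22.3% were upward and 17.7% downward there, and with 1 coding start 16.7% and 12.1%. The H3K27ac summit lay downstream of the start site in all 10 lists for 17 genes and upstream in all 10 for 4 (FANCM, BRCA1, ATM and CHEK2), each of which shares its region. For BRCA1 the distance was taken from the main start site, which its region does not cover (−45410 to −44681 bp). The FANCM summits lay at −1775 to −1565 bp, further upstream than the 1000 bp of the promoter window.

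Of the promoters with an E2F site, 5 of 8 rose at 1 h and 5 of 8 fell at 10 h, with median changes of 0.41 and −0.57, and among the 28 without it 11 rose and 12 fell, with medians of 0.26 and −0.46. With a CCAAT box 6 of 16 fell at 10 h, and without it 11 of 20. These are counts over genes, which are not replicates. The shares called among all coding promoters with and without each motif were not counted, so no difference by motif is shown.

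H3K4me1 lay beside or over each of these start sites in WT cells. In the 6 WT lists 16 to 22 of the 36 start sites lay inside an H3K4me1 peak (44.4% to 61.1%, beside 45.2% to 63.6% of the 11433 coding start sites inside regions called in all H3K27ac lists). At the others the start site was free, with a peak within 3000 bp on both sides in 19 of 20 and 19 of 19 such genes at 0 h. The median distance was 573 and 645 bp upstream and 685 and 710 bp downstream at 0 h. FANCA, RMI2 and MSH6 were covered in all 6 lists, while MRE11 was free in all 6, with H3K4me1 over 19.9% to 35.7% of the 3000 bp on either side. FANCI was free at 0 h in both lists and covered at 10 h in both.

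Limma called 0 of the 36 H3K4me1 flanks in either direction at 1 h (3 at an unadjusted p under 0.05) and 0 at 10 h (2 at an unadjusted p under 0.05). Over the 60476 H3K4me1 regions 0.291% rose and 0.304% fell at 1 h and 0.615% rose and 0.0231% fell at 10 h, so few calls were made anywhere. The median changes were −0.10 and −0.03. At FANCA the flank stood at the 79.9th and 84.2th percentile of H3K4me1 at 0 h, at 88.8 and 78.2 at 1 h and at 89.5 and 89.1 at 10 h. At MSH6 it stood at 75.7 and 60.5, then 62.9 and 57.6, then 68.5 and 55.4, with overlap between all times.

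**Figure D5:**
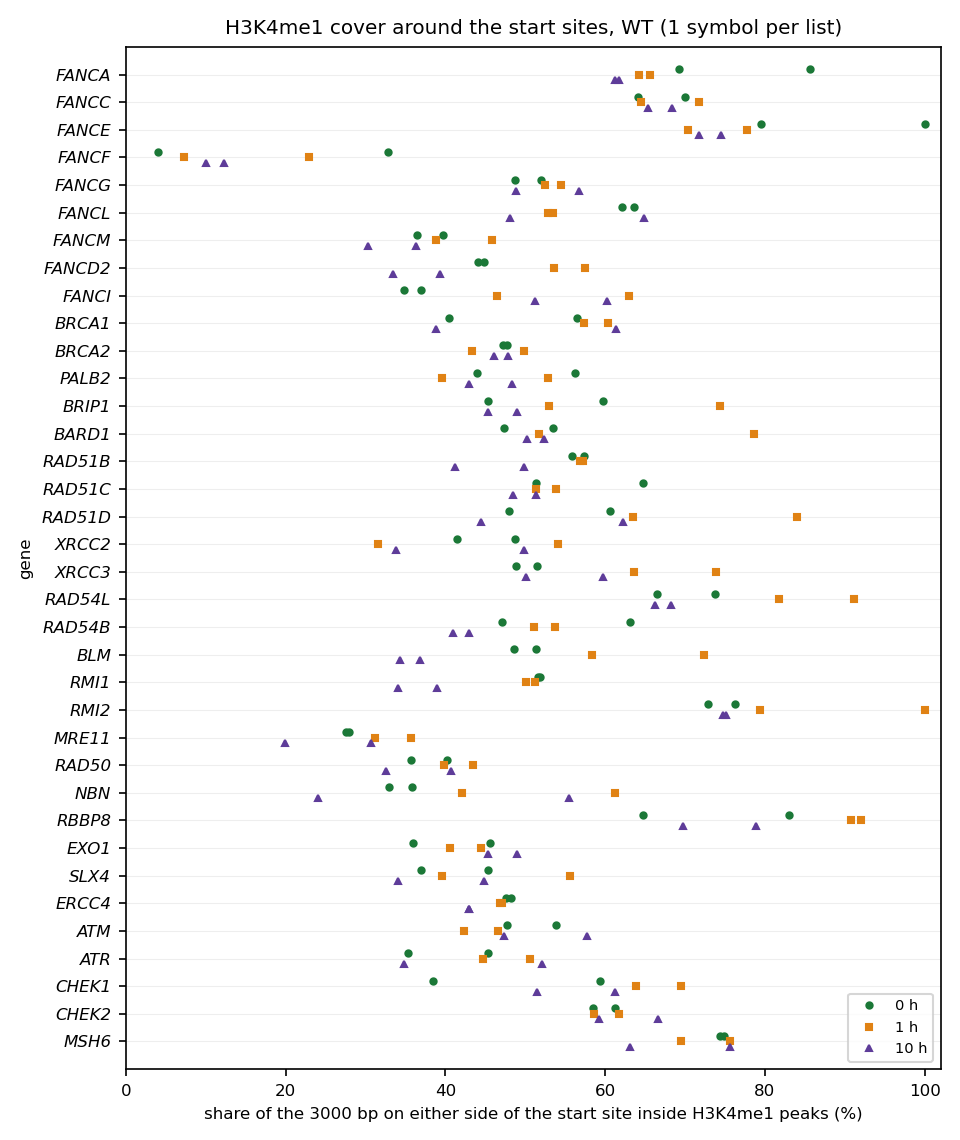
Share of the 3000 bp on either side of each start site that lies inside H3K4me1 peaks, in percent, with 1 symbol for each of the 6 WT lists, whose shape and color give the time. RMI2 lies at 72.9% or more and FANCF at 32.8% or less in every list.

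Another 55 genes of the pathways, none of them among the 36, were read the same way. At WT 1 h 14 rose (25.5%, beside 14.3% of all regions) and 9 fell (16.4%, beside 14.8%), with a median change of 0.16. SFR1, a recombination cofactor, rose by 1.63 (adjusted p = 0.00130). The smallest p-values among the falls were those of HELQ, a helicase (−0.71, adjusted p = 0.00102), and WDR48, the cofactor of the FANCD2 deubiquitinase (−0.84, adjusted p = 0.00135). At WT 10 h 11 fell (20.0%, beside 8.56%) and 3 rose (5.45%, beside 9.70%), with a median of −0.14. TOPBP1, which activates ATR (−0.97, adjusted p = 8.33e-04), the nuclease and helicase DNA2 (−0.86, adjusted p = 9.66e-04) and the checkpoint mediator CLSPN (−0.92, adjusted p = 0.00112) fell, and SFR1, REV3L and FAAP20 rose. In the RAD21 line 24 (43.6%) were past the threshold upward and 2 (3.64%) downward at 1 h, beside 14.4% and 13.4% of all regions.

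For reference, the promoter of MDM2, a direct p53 target, rose in WT cells at 1 h (93.8 and 91.8 to 98.0 and 98.5, change 0.65 ± 0.163, adjusted p = 0.00984). CDKN1A, which encodes p21, stood at 43.9 and 51.7 at 0 h, at 52.4 and 74.5 at 1 h and at 64.1 and 69.2 at 10 h (changes 0.41 and 0.49, adjusted p = 0.0722 and 0.0540). BBC3 stood at 78.8 and 82.2, then 63.2 and 87.9, then 86.8 and 85.6, with neither change called.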

How the data were processed

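H3K27ac and H3K4me1 were profiled by ChIP-seq. Per the sources, the authors trimmed reads (Trim Galore 0.6.6), aligned them (Bowtie2 2.3.2) and called peaks per sample against an input with MACS2 2.2.7.1, as narrow peaks (H3K27ac) or broad peaks (H3K4me1). The deposited lists give each peak's fold enrichment over background and −log10 p-value and q-value. They hold no read totals, so depth is unknown and the number of peaks stands in for it. The 10 input libraries were not analysed here. One label, BR2_BR3 in the peak names of RAD21 line 0 h replicate 2, is not explained.

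Peaks of a mark overlapping by at least 1 bp were merged (87608 H3K27ac and 110276 H3K4me1 regions), and a region took its largest −log10 p-value in each list. Regions called in every list (18757 and 60476) were ranked within each list, the ranks were turned into normal scores, and limma 3.58.1 (R 4.3.3, eBayes with trend) was fitted to all lists of a mark, with Benjamini-Hochberg adjustment over all regions at 0.05. The study tested read counts, which were not used here. Of several regions a gene took the one with the highest mean percentile. FANCA, the gene nearest to it in rank change in the RAD21 line, and up to 4 genes with the smallest p in each direction of a comparison were named with values, the others by group. For H3K4me1 the region within 3000 bp of the start site with the highest mean rank was used.

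Genes and lists were chosen with earlier results of these data known. Groups of 2 lists share 1 estimate of spread. The study calls its replicates biological, but no source used here ties equal numbers to a shared day. Alternatives were rank by fold, the name form as a term, a replicate block, percentiles, regions called in at least 8 lists, the window of 250 bp upstream and 50 bp downstream, and leaving out each list of the compared groups. The region over the main start site and leaving out a WT 1 h list from comparisons it is no part of were added after the data were seen. Start sites came from the GENCODE annotation lifted to GRCh37 and sequences from GRCh37. Some genes and sequences are not reported here. Motifs and figures were made with Python 3.11.15.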

Additional observations from a re-analysis of the deposited data

Results flagged for a closer look

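At BRCA2, MRE11 and ATM both 1 h lists lay below both 0 h lists in WT cells and above them in the RAD21 line. The share of all regions with such opposite moves was not counted, so these 3 are not shown to be unusual. The 1 h change was larger in the RAD21 line by 0.64 for BRCA2, 0.96 for MRE11 and 0.35 for ATM, in normal score units. ATM, the kinase that answers double-strand breaks, went from 86.7 and 86.9 to 86.5 and 81.5 in WT cells and from 73.8 and 80.8 to 83.9 and 83.9 in the RAD21 line. This difference was past the threshold for MRE11 and BRCA2 (5.56% of the 36, beside 11.7% of all regions) and not for ATM. As the list rests partly on the 1 h comparison in the RAD21 line, it was not tested independently of that choice and is a description. All 3 share their region with a coding start site on the opposite strand (ZAR1L, ANKRD49 and NPAT), and their untreated values already differed between the lines (BRCA2 by −0.33, MRE11 by −0.99 and ATM by −0.36). WT 1 h replicate 1 has the name form of the WT 0 h lists and WT 1 h replicate 2 that of the RAD21 line, and the part of this in the pattern was not tested.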

How the results depend on the processing

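All 36 promoters were called in every list also at −log10 q of at least 5 and with at least 100 bp covered, and 35 (all but FANCM) in the narrower window. With ranks by fold, 0 promoters were called in either direction at WT 1 h, at RAD21 line 1 h, between the lines at 1 h or in the difference of changes. At WT 10 h 11 fell, beside 9.58% of all regions. Between the untreated lines 1 was higher and 2 lower, beside 10.4% and 11.6%, and there BRCA2 turned to 0.17. With the name form as a term, 8 fell and 2 rose at WT 10 h (beside 2.34% and 2.06% of all regions). There 7 were higher between the untreated lines (beside 11.8%), and 1 was higher and 4 lower at 1 h (beside 10.1% and 9.72%). In the difference of changes 9 lay downward (beside 14.9%). On the percentile scale 1 fell at WT 1 h and 2 lay downward in the difference of changes, beside 15.1% and 10.9% of all regions. The name form as a term rests on the 2 WT 1 h lists alone, and the cause of these shifts was not tested.

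Leaving out 1 list of the compared groups gave 10 to 20 rises and 0 to 4 falls at WT 1 h, 0 rises and 11 to 13 falls at WT 10 h, 9 upward and 2 to 3 downward in the RAD21 line at 1 h, 2 to 4 higher and 2 to 4 lower between the untreated lines, 0 to 4 higher and 0 to 8 lower at 1 h, and 1 to 8 upward and 1 to 9 downward in the difference of changes. Without either WT 1 h list, which alters only the shared spread for the other groups, 26 fell and 1 rose at WT 10 h, 17 were upward and 5 downward in the RAD21 line at 1 h, and 5 were higher and 12 lower between the untreated lines. Over all regions, without replicate 1 and without replicate 2, 18.0% and 18.1% fell and 17.3% and 17.2% rose at WT 10 h. In the RAD21 line 22.8% and 22.7% were upward and 19.2% downward in both fits. Between the untreated lines 22.1% and 22.0% were higher and 28.1% and 28.2% lower. No H3K4me1 flank was called under any setting run. The replicate block gave 17 rises and 2 falls at WT 1 h and 16 falls at WT 10 h, losing EXO1 there (adjusted p = 0.0533) and BRCA2 between the untreated lines (0.0548). Over all regions 14.0% rose and 14.3% fell at WT 1 h and 8.12% fell at WT 10 h in that fit. Lists of equal number did not deviate together (correlations of −0.05 to 0.05 across regions). Whether lists of equal number were prepared together cannot be told from this.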
